A study of Mus musculus with 4 samples.

Results

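The genes described here encode the nuclear-encoded subunits of the mitochondrial respiratory chain and ATP synthase, together with complex I assembly factors that share their name stem. They were all genes whose symbol on the array platform starts with Nduf, Uqcr, Atp5 or Cox4 to Cox8, or is Sdha, Sdhb, Sdhc or Sdhd. Of 18193 named genes, 90 met this rule, through 179 of 45037 probe sets, and each gene was represented by its brightest probe set, by the mean of the 4 arrays. The naming rule and the probe set choice used no difference between arrays, but the group was chosen with earlier results of these data known. A further 8 symbols, among them Ndufa11 and Ndufs6, occurred only in probe sets that name several genes and were left out.

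The cells came from B16 melanoma, a transplantable mouse tumor line, grown in C57BL/6 mice that carried a multicolor Cre reporter. Tamoxifen had switched cells to 1 of several colors, and cells of 1 color were treated as a clone, although unrelated cells can take the same color. At 2 weeks after inoculation the tumors were dissociated, and CD45-CD31+CD144+ cells, a gate for blood vessel endothelium, were sorted. The study used 2 tumors, called A and B. In each, 1 Affymetrix array was hybridised with the most frequent clone, named expansion, and 1 with the least frequent, named extinction. All 4 groups share strain, reporter, tumor line and sort, and the labels name neither the promoter that drives Cre nor the number of cells or animals behind an array. With 2 arrays per clone class and 1 array for each class within a tumor, the number of arrays limits the precision.

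Complex I (NADH dehydrogenase) and complex II (succinate dehydrogenase) pass electrons to ubiquinone, complex III passes them on to cytochrome c, and complex IV (cytochrome c oxidase) reduces oxygen to water. Complexes I, III and IV pump protons, and ATP synthase, also called complex V, uses the proton gradient to make ATP. Endothelial cells are known for making much of their ATP by glycolysis while keeping a working respiratory chain.

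Of the 90 members, 85 had a mean of at least 5.83, the median level over all probe sets. The 5 members below it were the tissue-restricted cytochrome oxidase isoforms Cox6b2, Cox7a1, Cox7b2 and Cox8b, and the complex I subunit Ndufb4. Members varied less than other genes: the range over the 4 arrays had a median of 0.48 on the log2 scale, against 0.58 for all named genes and 0.81 for the named genes at or above the median level. A range of 1 or more, that is 2-fold, occurred in 8 members (8.89%) and in 26.8% of all named genes.

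The first comparison set the most frequent clone against the least frequent clone over both tumors. No member differed between the clone classes in limma's test, Benjamini-Hochberg adjusted over 45037 probe sets, (0 of 90 called, adjusted p = 1 for each member, and 0% of all probe sets called). At an unadjusted p under 0.05 there was 1 member, Ndufaf6, and 469 probe sets in all. The median difference of the members, expansion minus extinction, was -0.00 on the log2 scale averaged over the tumors, against 0.02 for all named genes. This mean joined opposite values: the tumor A median was 0.16 and the tumor B median -0.21, where all named genes had -0.04 and 0.07.

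Most members thus lay on opposite sides in the tumors. In 55 of 90 members (61.1%) the expansion array was the higher of the pair in tumor A but the lower of the pair in tumor B, against 28.6% of all named genes, and these are called crossing members. The reverse occurred in 14 members, against 39.5%. The expansion array was higher in both tumors in 7 members, against 17.3%, and lower in both in 14 members, against 14.1%. Without overlap of the array pairs, 44 members had expansion A and extinction B above the other arrays (22.7% of all named genes) and 8 had them below (32.5%). Expansion A was the highest array for 47 members, against 27.8% of all named genes, and expansion B the lowest for 50, against 24.2%. The crossing was noticed in these same arrays and was not tested. Clone classes were taken from the labels as given. Whether the classes were exchanged in 1 of the tumors was not tested, and an exchange would turn the sign of that tumor's values.

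**Figure D1:**
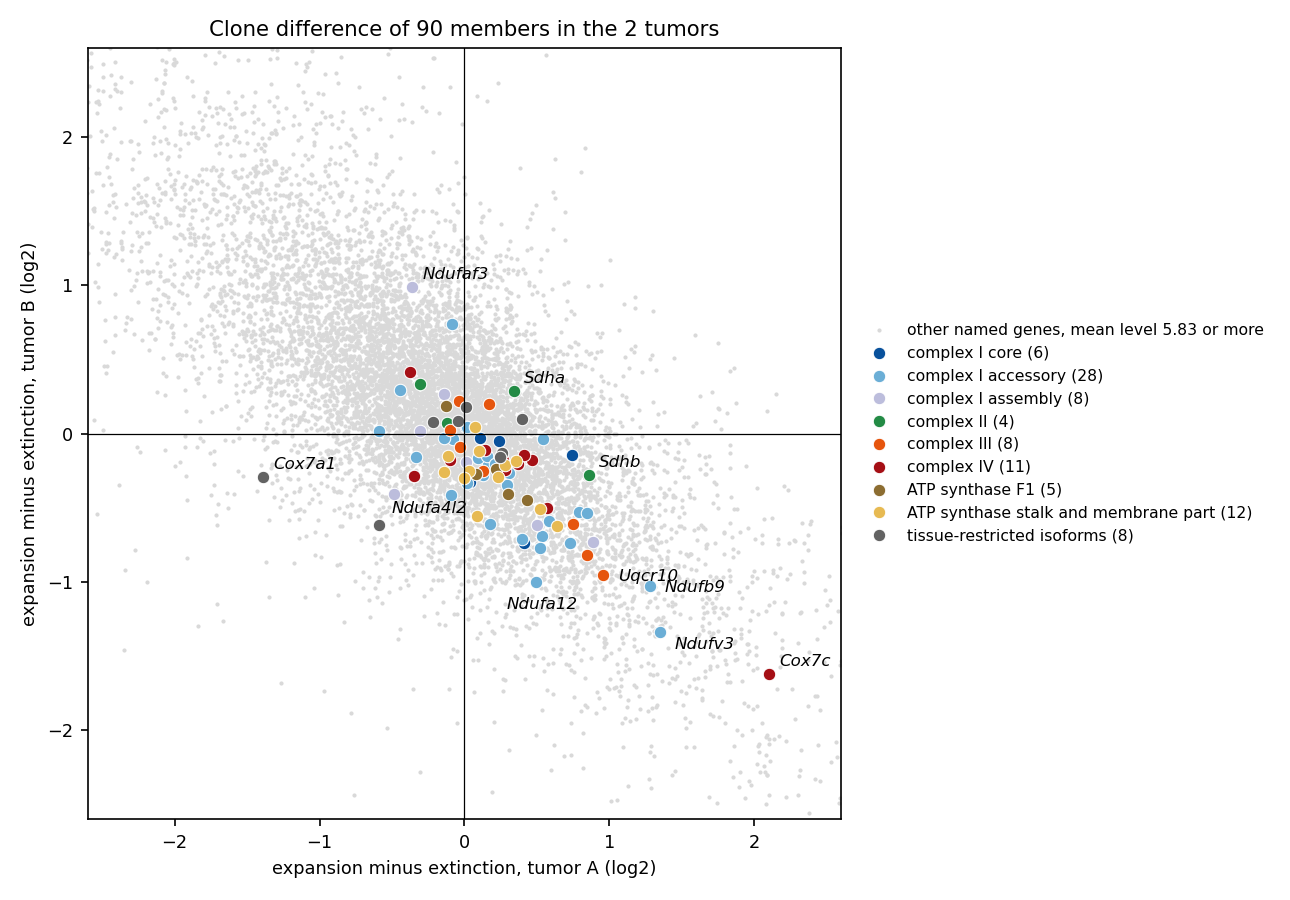
Expansion minus extinction (log2) in tumor A on the x axis and in tumor B on the y axis, 1 point per gene, with the 90 members colored by role and other named genes with a mean level of 5.83 or more in gray (genes beyond the axes are not drawn). The lower right quadrant holds 55 members, with Cox7c, Ndufv3 and Ndufb9 farthest from the center, and Cox7a1 and Ndufa4l2 lie in the lower left.

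The same crossing was present in markers of the tumor cells themselves. The 13 melanoma markers measured, pigment cell genes such as Tyr, Mlana and Dct, had a mean log2 level of 12.31 and 7.64 in the expansion and extinction arrays of tumor A and of 6.70 and 11.57 in those of tumor B. All 13 crossed, with median differences of 4.63 and -5.34. The 20 endothelial markers had mean levels of 8.37, 10.56, 11.00 and 9.34 in the same order of arrays, and 19 of 20 crossed the opposite way. Pericyte and fibroblast markers had median differences of -0.92 and -1.02 for tumor A and of 0.48 and 0.54 for tumor B. Of the adipocyte markers, adiponectin (Adipoq) stood at 6.78 in expansion B and at 3.78, 3.76 and 3.75 in the others. Leukocyte and skeletal muscle lists had median levels of 5.17 and 5.35, below the median of all probe sets, with Cd14 and Csf1r among the leukocyte genes above it. The part of these cells in the members' values was not tested, and in sorted bulk samples fewer cells of a type and less RNA per cell cannot be told apart.

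**Figure D2:**
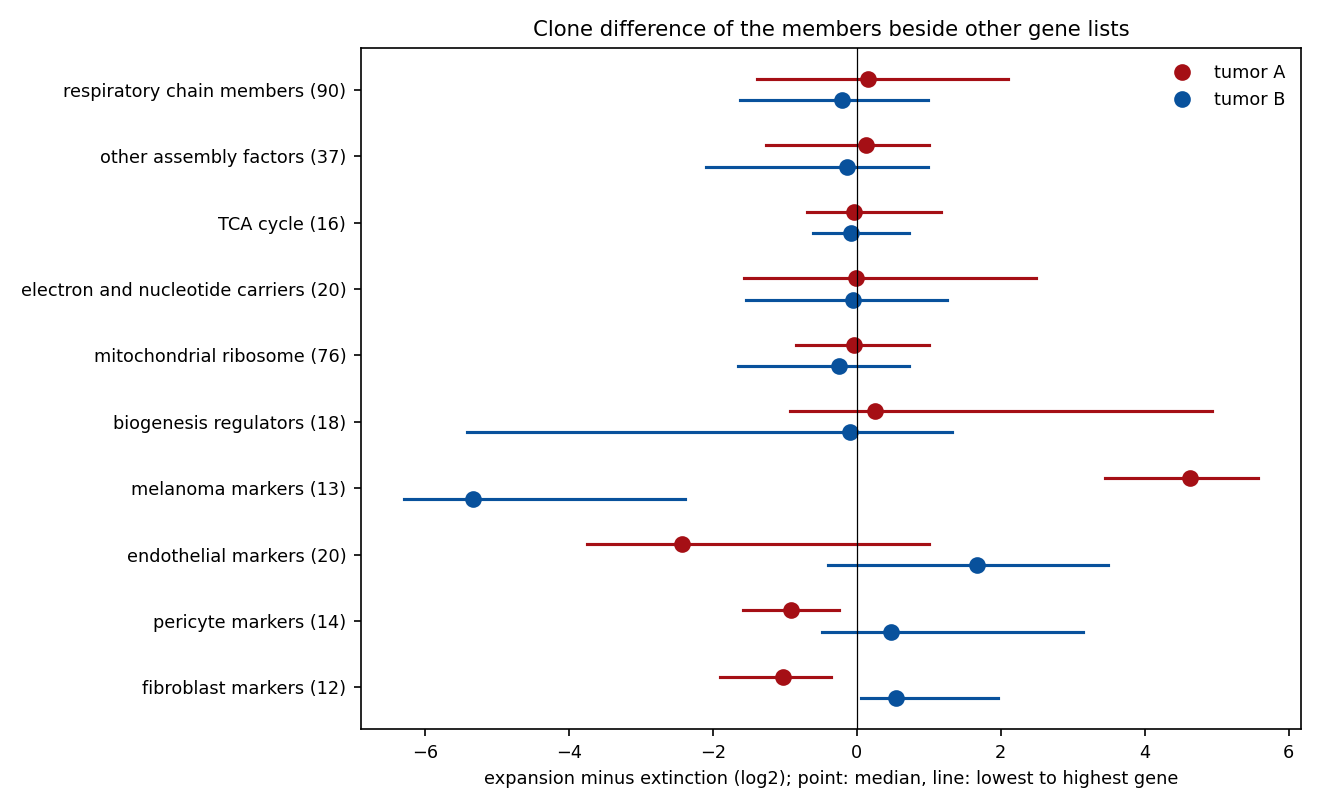
Expansion minus extinction (log2) on the x axis for the 90 members and 9 other gene lists, with the number of genes in parentheses, tumor A in red and tumor B in blue. Points are list medians and lines run from the lowest to the highest gene, so the members' medians of 0.16 and -0.21 can be read beside 4.63 and -5.34 for melanoma markers.

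Few members reached a 2-fold difference within a tumor. In tumor A, 3 were at least 2-fold higher in expansion (5.89% of all named genes) and 1 was at least 2-fold lower (10.4%). In tumor B, 0 were at least 2-fold higher (9.68%) and 3 were at least 2-fold lower (4.77%). The same genes, Cox7c, Ndufv3 and Ndufb9, made up the first and the last of these counts, and Cox7a1 was the gene that was lower in tumor A. At 1.5-fold, 13 members were higher and 3 lower in expansion in tumor A (12.1% and 18.6%), and 2 were higher and 18 lower in tumor B (18.6% and 10.6%). The members' shares were 14.4% and 3.33% in tumor A and 2.22% and 20% in tumor B. Among the named genes at or above the median level they were 17.3% and 26.9%, and 25.7% and 15%.

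Cox7c, a small subunit of complex IV, had the largest crossing among the members. It stood at 8.84 and 6.74 (log2 level) in expansion and extinction of tumor A, and at 6.49 and 8.12 in those of tumor B. Expansion A and extinction B were thus high and the other arrays low, with differences of 2.10 and -1.63. This probe set had a mean level of 7.55, the lowest among the complex IV members, whose median level was 12.76. The second Cox7c probe set, with a mean level of 4.30, below the median of all probe sets, gave 1.13 and -0.92. Which region of the transcript these dim probe sets read was not examined.

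Among the accessory subunits of complex I, Ndufv3, part of the NADH-binding module, came next. Its levels were 12.70 and 11.35 in expansion and extinction of tumor A, and 11.25 and 12.58 in those of tumor B. The high and low arrays were the same as for Cox7c and the differences nearly mirrored each other, at 1.35 and -1.34. Ndufb9, in the membrane arm, stood at 13.29, 12.01, 11.90 and 12.92 in the same order, with differences of 1.28 and -1.03. Its 2 other probe sets had the same signs, at 1.06 and -0.67 and at 0.73 and -0.23. In the mean over tumors these genes differed by little against their errors: 0.24 ± 1.05 (SE, n = 2 per class) for Cox7c, 0.01 ± 0.74 (SE) for Ndufv3 and 0.13 ± 0.65 (SE) for Ndufb9.

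**Figure D3:**
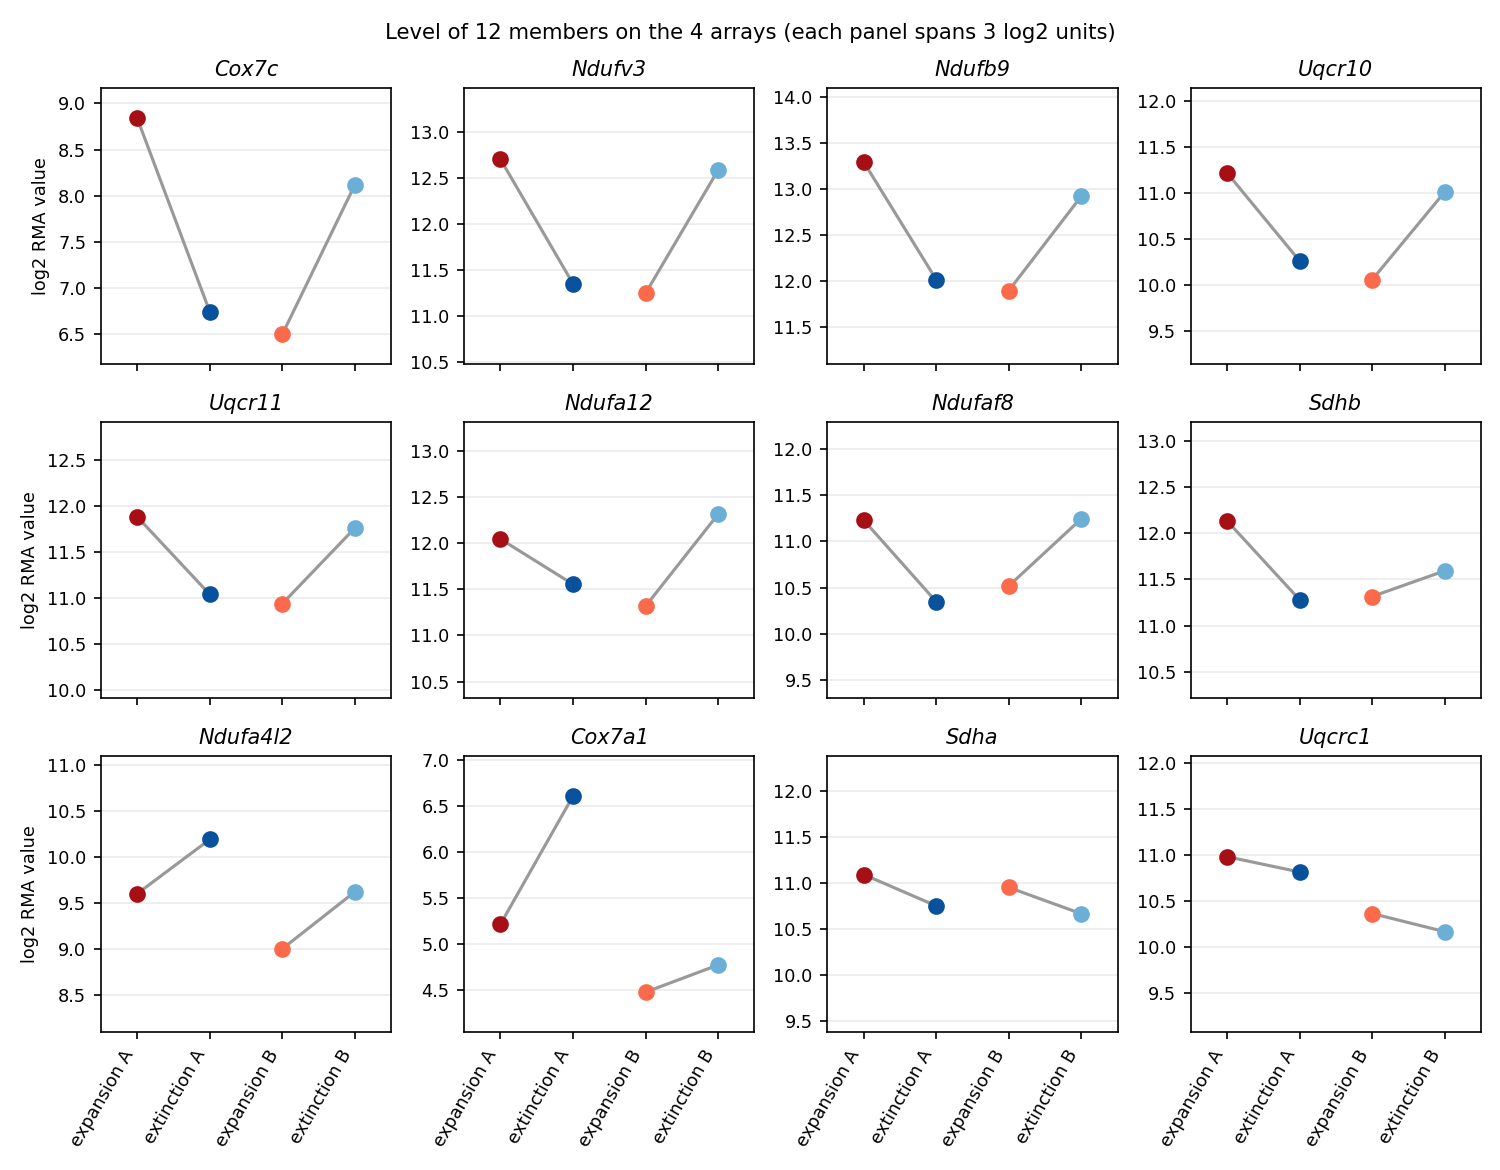
Log2 RMA value (y axis) of 12 members on the 4 arrays (x axis), with a line joining the arrays of 1 tumor and each panel spanning 3 log2 units. Cox7c, Ndufv3, Ndufb9, Uqcr10 and Uqcr11 are high in expansion A and extinction B, whereas Ndufa4l2 and Cox7a1 are low in expansion in each tumor, and Uqcrc1 is low in both arrays of tumor B.

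Of all accessory subunits of complex I, Ndufv3 and Ndufb9 included, 20 of 28 crossed, with medians of 0.19 and -0.31. Ndufa12 lay just short of 2-fold in tumor B, at 11.32 in expansion against 12.32 in extinction (-0.999), and at 12.05 against 11.56 in tumor A (0.49). Ndufb2 differed by 0.85 and -0.53 and Ndufc1 by 0.52 and -0.77. Ndufa8 and Ndufb6 went the opposite way, with -0.44 and 0.30 for the former and -0.59 and 0.02 for the latter.

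The core subunits of complex I, which carry its flavin and iron-sulfur clusters, differed less. By their brightest probe sets all 6 measured were higher in expansion in tumor A (median 0.17) and 5 were lower in tumor B (median -0.10). For Ndufs8 the tumor A difference was only 0.01, and its other probe sets were lower in expansion there, between -0.38 and -0.06. Ndufs1, the largest iron-sulfur subunit, was at 10.52 in expansion A and at 9.78, 9.43 and 9.57 in extinction A, expansion B and extinction B, so that 1 array stood above the rest. Ndufv2 crossed, at 12.10 and 11.69 in tumor A and 11.31 and 12.05 in tumor B. Ndufs3, Ndufs7, Ndufs8 and Ndufv1 had differences between 0.01 and 0.24 in tumor A and between -0.33 and 0.05 in tumor B.

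The 8 complex I assembly factors, proteins that help build the complex without staying in it, did not share the pattern of the subunits as a group: their medians were -0.22 and -0.24. Ndufaf8 crossed like the accessory subunits, at 11.23 and 10.35 in tumor A and 10.52 and 11.25 in tumor B. Ndufaf3 crossed the other way, at 7.52 and 7.88 in tumor A and 8.07 and 7.08 in tumor B, and in tumor B its 0.99 was the largest difference above 0 among the members. Ndufaf6 was lower in expansion in each tumor, at 7.60 and 7.72 against 8.09 and 8.13 in extinction. Its mean difference of -0.45 ± 0.15 (SE, n = 2 per class) had an unadjusted p of 0.0464 and an adjusted p of 1 in limma's test. Ndufaf2 was lower as well, at 8.34 and 8.30 against 8.69 and 8.59.

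Complex II, which also serves the citric acid cycle, did not follow 1 pattern. The flavin subunit Sdha was higher in expansion in each tumor, at 11.09 and 10.95 against 10.75 and 10.67 in extinction, without overlap of the classes. Its mean difference was 0.31 ± 0.15 (SE, n = 2 per class), and a second probe set with a mean level of 10.64 gave -0.08 and 0.44. The iron-sulfur subunit Sdhb was at 12.14 in expansion A and between 11.28 and 11.59 in the other arrays. The membrane anchors Sdhc and Sdhd were lower in expansion in tumor A (-0.12 and -0.31) and higher in tumor B (0.07 and 0.33).

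In complex III, the small subunits Uqcr10, Uqcr11 and Uqcrq crossed by at least 1.5-fold in each tumor, and the brightest probe sets of the other subunits stayed within 1.5-fold. Uqcr10 was at 11.22 and 10.26 in expansion and extinction of tumor A and at 10.05 and 11.01 in tumor B. Its dimmer probe sets crossed the same way, with 3.10 and -1.92 for 1 and 1.22 and -1.14 for the other. Uqcr11 stood at 11.88 and 11.04 in tumor A and 10.94 and 11.76 in tumor B, and Uqcrq, the ubiquinone-binding protein QP-C, at 11.97 and 11.22 in tumor A and 11.06 and 11.67 in tumor B. The core proteins Uqcrc1 and Uqcrc2 differed between the clone classes by 0.17 and -0.10 in tumor A and 0.20 and 0.03 in tumor B. A second Uqcrc2 probe set, with a mean level of 10.61, gave -0.45 and 0.49. The Rieske iron-sulfur protein Uqcrfs1 gave 0.13 and -0.25, Uqcrh -0.03 and -0.09, and Uqcrb -0.04 and 0.22. A second Uqcrb probe set, with a mean level of 11.11, gave -0.76 and 0.38.

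In complex IV, 8 of 11 broadly expressed members crossed, with medians of 0.28 and -0.18. Apart from Cox7c they differed by less than 1.5-fold by their brightest probe sets. Cox5b had 6 probe sets, and its brightest gave 0.57 and -0.50. At a mean level of 13.43, its next brightest gave 0.69 and -0.53, past 1.5-fold in tumor A. The probe sets other than the brightest had the same signs, between 0.40 and 1.23 for tumor A and between -1.11 and -0.45 for tumor B. Cox7a2l, grouped here with complex IV, crossed the other way, at 11.91 and 12.28 in tumor A and 12.43 and 12.02 in tumor B. Its 3 probe sets kept these signs. Cox6c was lower in expansion in each tumor (-0.35 and -0.28), but its second probe set gave 0.40 and -0.14. Cox7b was not analysed here.

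The isoform pairs were read within each isoform, since levels of different probe sets cannot be compared. Ndufa4l2, a hypoxia-inducible relative of the complex IV subunit Ndufa4 and a known pericyte marker, was lower in expansion in each tumor. It stood at 9.60 and 9.00 (log2 level) in expansion A and B and 10.19 and 9.62 in extinction A and B. The differences of -0.59 and -0.62 were nearly equal and extinction B lay just above expansion A, so the classes touched without overlap. The mean of -0.60 ± 0.34 (SE, n = 2 per class) did not pass the test and ranged from -0.90 to -0.30 when 1 array was left out, and Ndufa4 itself differed by 0.41 and -0.14. Cox4i2, another isoform of pericytes and lung, was at 6.96 and 6.67 in expansion and at 6.57 in both extinction arrays, while the common Cox4i1 differed by 0.26 and -0.18. The 14 other pericyte and smooth muscle markers had medians of -0.92 and 0.48, so they shared the sign of Ndufa4l2 in tumor A and not in tumor B, and their part in its values was not tested.

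Cox7a1, the heart, muscle and brown fat isoform, had the largest mean difference in the lower direction. It was at 6.61 in extinction A and at 5.21, 4.48 and 4.77 in expansion A, expansion B and extinction B, so a single array stood above the others. The differences were -1.39 and -0.30, and without extinction A the mean difference turned from -0.84 to 0.073. The common Cox7a2 gave 0.37 and -0.21. Cox6a2 and Cox8b, further muscle isoforms, gave 0.01 and 0.18 and 0.26 and -0.13, against 0.14 and -0.11 for Cox6a1 and 0.46 and -0.18 for Cox8a. By their brightest probe sets Cox6b2, Cox8c and Cox7b2, isoforms mainly of testis, differed by at most 0.25 in either tumor. A second Cox8c probe set, with a mean level of 6.23, had the opposite signs, at -0.23 and 0.61. The 8 non-member brown adipocyte markers had mean levels of 5.85, 5.96, 5.65 and 6.11 in expansion A, extinction A, expansion B and extinction B. Their median levels were 5.39, 5.83, 5.32 and 5.75, and the means include Ppargc1a at 11.54, 6.60, 5.06 and 10.48. In tumor A, 6 of 8 were lower in expansion, against 9774 of 18193 named genes. The defining marker Ucp1 was between 4.04 and 4.27. Zic1, Lhx8 and Otop1 were highest in extinction A, as Cox7a1 was, at 5.81, 8.12 and 3.64. Lhx8 was also at 7.87 in expansion B and Zic1 at 5.59 in extinction B, arrays in which Cox7a1 was low. Dio2, Cidea and Elovl3 were highest in expansion B, at 8.74, 5.57 and 6.00, Ppargc1a in expansion A and Ucp1 in extinction B. The part of such cells in the values of Cox7a1 was not tested.

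Among the F1 subunits of ATP synthase, the catalytic part, 4 of 5 crossed. Atp5c1, the central shaft, stood at 12.76 and 12.33 in tumor A and 11.88 and 12.32 in tumor B. Atp5b (catalytic), Atp5d and Atp5e (both of the shaft) gave 0.22, 0.08 and 0.30 for tumor A, and -0.24, -0.27 and -0.41 for tumor B. Atp5a1 gave -0.13 and 0.18. Of the 12 genes of the stalk and membrane part, 11 were lower in expansion in tumor B (median -0.26) and 9 were higher in tumor A (median 0.10). The genes for subunit c, the proton-carrying ring, gave 0.03 and -0.25 (Atp5g1), 0.23 and -0.29 (Atp5g2) and 0.10 and -0.12 (Atp5g3).

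**Figure D4:**
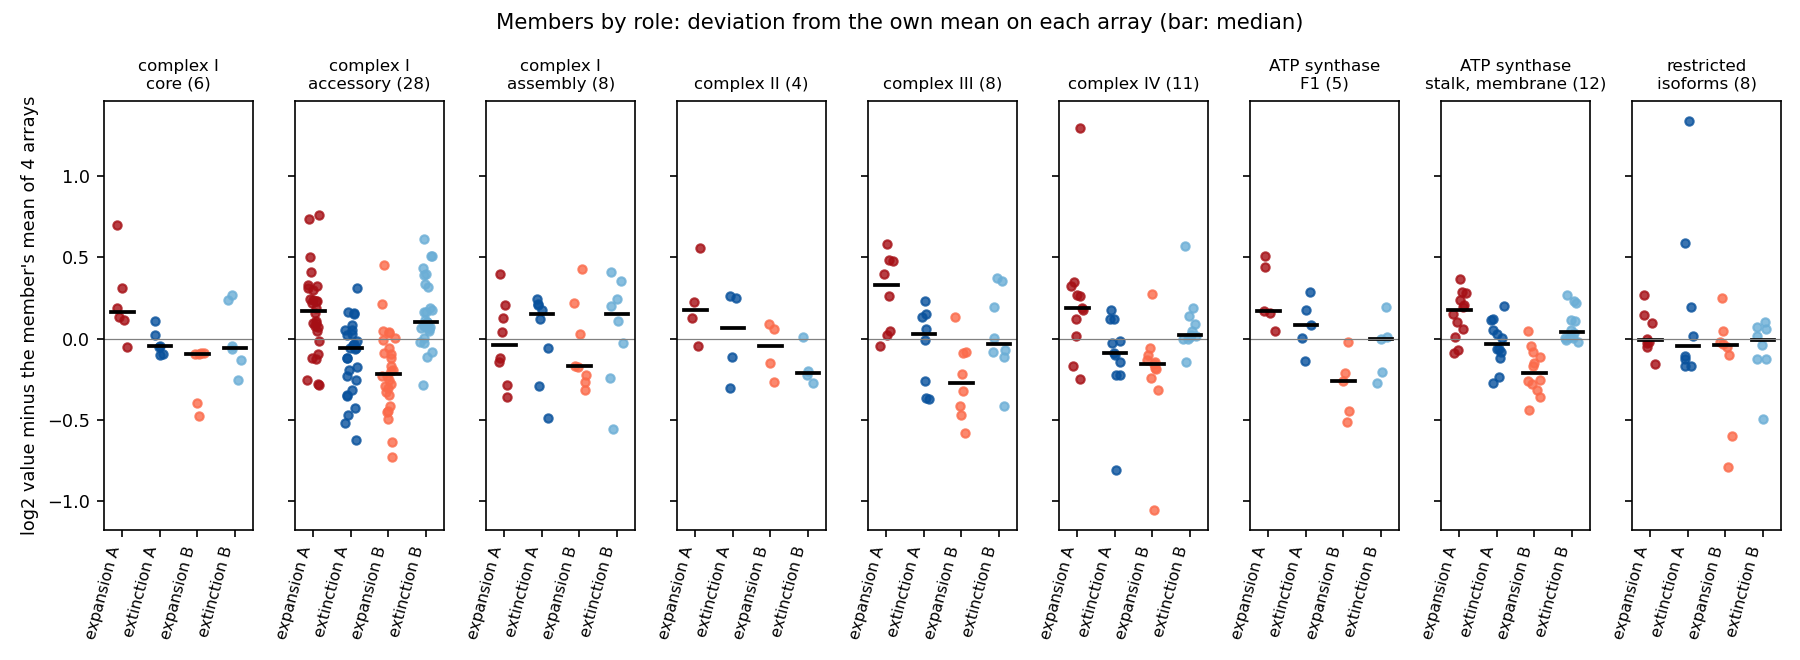
Deviation of each member from its own mean of the 4 arrays (log2, y axis) on each array (x axis), in 9 panels by role with the number of members in parentheses and a bar at the median. In the core and accessory complex I, complex III, complex IV and both ATP synthase panels expansion A lies highest by its median and expansion B lowest. The restricted isoforms have medians near 0 on every array.

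Across roles, 9 members were at least 1.5-fold higher in expansion in tumor A and also at least 1.5-fold lower in tumor B, against 6.73% of all named genes. They were Cox7c, Ndufv3, Ndufb9, Ndufb7, Ndufaf8, Uqcr10, Uqcr11, Uqcrq and Atp5mpl, none of them a catalytic or core subunit. Among the named genes at or above the median level the share was 9.97%, close to the 10% of the members. In the reverse direction there were 0 members, against 11.5% of all named genes.

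Promoter sequence was set beside this pattern for 4 members, chosen after their values were seen: Uqcr11 and Ndufaf8, which crossed, Uqcrc1, which instead differed between the tumors, and Cox7a1, which stood out on 1 array. The windows, from RefSeq on GRCm38.p6, run 5′ to 3′ on the gene's strand from 250 bases before the start to 50 bases after it. Capitals mark matches to motifs of factors known to act on respiratory chain genes, namely GCGCATGC for NRF1, CCGGAAGT for ETS factors such as GABP, and AAGATGGC for YY1, on either strand.
Uqcr11, chr10:80406772-80407071, minus strand: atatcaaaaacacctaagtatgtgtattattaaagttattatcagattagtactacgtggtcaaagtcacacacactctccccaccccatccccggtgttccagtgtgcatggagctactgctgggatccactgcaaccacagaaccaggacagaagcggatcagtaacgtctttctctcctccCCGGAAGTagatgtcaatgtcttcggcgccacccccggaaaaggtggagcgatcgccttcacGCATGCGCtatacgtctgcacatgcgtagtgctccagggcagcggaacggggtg
Ndufaf8, chr11:120098684-120098983, plus strand: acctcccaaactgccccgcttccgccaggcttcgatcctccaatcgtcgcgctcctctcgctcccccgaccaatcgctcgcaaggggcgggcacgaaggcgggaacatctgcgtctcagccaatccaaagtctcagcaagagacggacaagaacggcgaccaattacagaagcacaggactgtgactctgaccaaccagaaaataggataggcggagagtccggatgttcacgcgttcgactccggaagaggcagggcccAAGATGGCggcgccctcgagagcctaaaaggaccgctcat
Uqcrc1, chr9:108936398-108936697, plus strand: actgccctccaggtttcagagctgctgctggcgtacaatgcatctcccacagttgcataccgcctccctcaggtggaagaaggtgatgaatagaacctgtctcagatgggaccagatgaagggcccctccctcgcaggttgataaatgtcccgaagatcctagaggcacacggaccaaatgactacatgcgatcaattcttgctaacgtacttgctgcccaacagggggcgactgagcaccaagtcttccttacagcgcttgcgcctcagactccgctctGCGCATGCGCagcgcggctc
Cox7a1, chr7:30183921-30184220, plus strand: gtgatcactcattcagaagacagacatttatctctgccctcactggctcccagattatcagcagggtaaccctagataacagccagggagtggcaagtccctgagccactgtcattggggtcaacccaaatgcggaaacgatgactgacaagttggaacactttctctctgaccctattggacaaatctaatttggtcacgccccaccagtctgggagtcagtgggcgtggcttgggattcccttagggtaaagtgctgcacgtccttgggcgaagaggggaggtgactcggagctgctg
Uqcr11 has an ETS match and an NRF1 match, Ndufaf8 has a YY1 match and Uqcrc1 has overlapping NRF1 matches on both strands. Cox7a1 has none of these letters in its window.

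A window was given for 74 of 90 members. NRF1 letters occurred in 11 of them (14.9%), against 4.70% of 14368 measured genes and 2.71% of all 32851 windows. Members and measured genes were counted by gene, with a match in any window of the gene, whereas the last share counts single windows. YY1 letters occurred in 10 (13.5%, against 4.09% of measured genes) and ETS letters in 5 (6.76%, against 6.65%). Sdhb, Cox6a1 and Atp5g2 were among the members with NRF1 letters. Of the 55 crossing members 49 had a window, and 9 of these held NRF1 letters, 3 ETS letters and 7 YY1 letters. Of the other members 25 had a window, and 2, 2 and 3 of these held the letters in the same order. Of the 9 members that crossed by at least 1.5-fold in both tumors 6 had a window, and each motif occurred in 1 of them. These counts are small and were not tested. A match is a description of the sequence, and no binding was measured.

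Tumor B was then compared with tumor A. No member passed limma's test (0 of 90 called, adjusted p = 1 for each member, and 0% of all probe sets called), and 2 members, Atp5b and Uqcrc1, had an unadjusted p under 0.05, among 648 probe sets. Both arrays of tumor B lay below both arrays of tumor A in 21 members, against 13.9% of all named genes, and above them in 5, against 9.34%. In the expansion arrays the members' median was -0.33 (0.03 for all named genes), with 25 members at least 1.5-fold lower and 0 at least 1.5-fold higher in tumor B (14.2% and 18.1%). In the extinction arrays the median was 0.06 (-0.08 for all named genes), with 12 members at least 1.5-fold higher and 3 lower in tumor B (8.96% and 18.5%). Of the named genes at or above the median level, 12.2% were so higher, near the 13.3% of the members, and 26.6% lower. In the expansion arrays 20.6% of those genes were lower, against 27.8% of the members, and 25.1% higher. The melanoma markers had a median of -5.67 in the expansion arrays and 4.02 in the extinction arrays, and the endothelial markers of 2.62 and -1.31; their part was not tested. These comparisons use the arrays of the clone comparison again and are no separate evidence on it.

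Uqcrc1, a core protein of complex III, had nearly the same tumor difference in each clone class. Its levels were 10.98 and 10.82 in expansion and extinction of tumor A and 10.36 and 10.17 in tumor B. Both arrays of tumor B were low, with differences of -0.62 and -0.65 and a mean of -0.63 ± 0.17 (SE, n = 2 per tumor; limma unadjusted p = 0.0267, adjusted p = 1). Atp5b, the catalytic subunit of ATP synthase, stood at 12.47 and 12.25 in tumor A and at 11.45 and 11.69 in tumor B, a mean difference of -0.79 ± 0.19 (SE, n = 2 per tumor; limma unadjusted p = 0.0180, adjusted p = 1). Ndufs1 differed by -1.10 and -0.21, Ndufa4l2 by -0.60 and -0.57, Cox7a1 by -0.74 and -1.83 and Atp5c1 by -0.88 and -0.01 in the expansion and extinction arrays.

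In the other direction, Ndufaf1, an early assembly factor of complex I, had the largest mean difference among the members higher in tumor B in each class. It was at 7.58 and 7.89 in tumor A and 8.16 and 8.14 in tumor B, a mean of 0.42 ± 0.18 (SE, n = 2 per tumor). Cox6a2 gave 0.40 and 0.24, and Ndufa2, Ndufb3, Ndufs4 and Ndufaf6 differed by between 0.04 and 0.26 in either class.

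**Figure D5:**
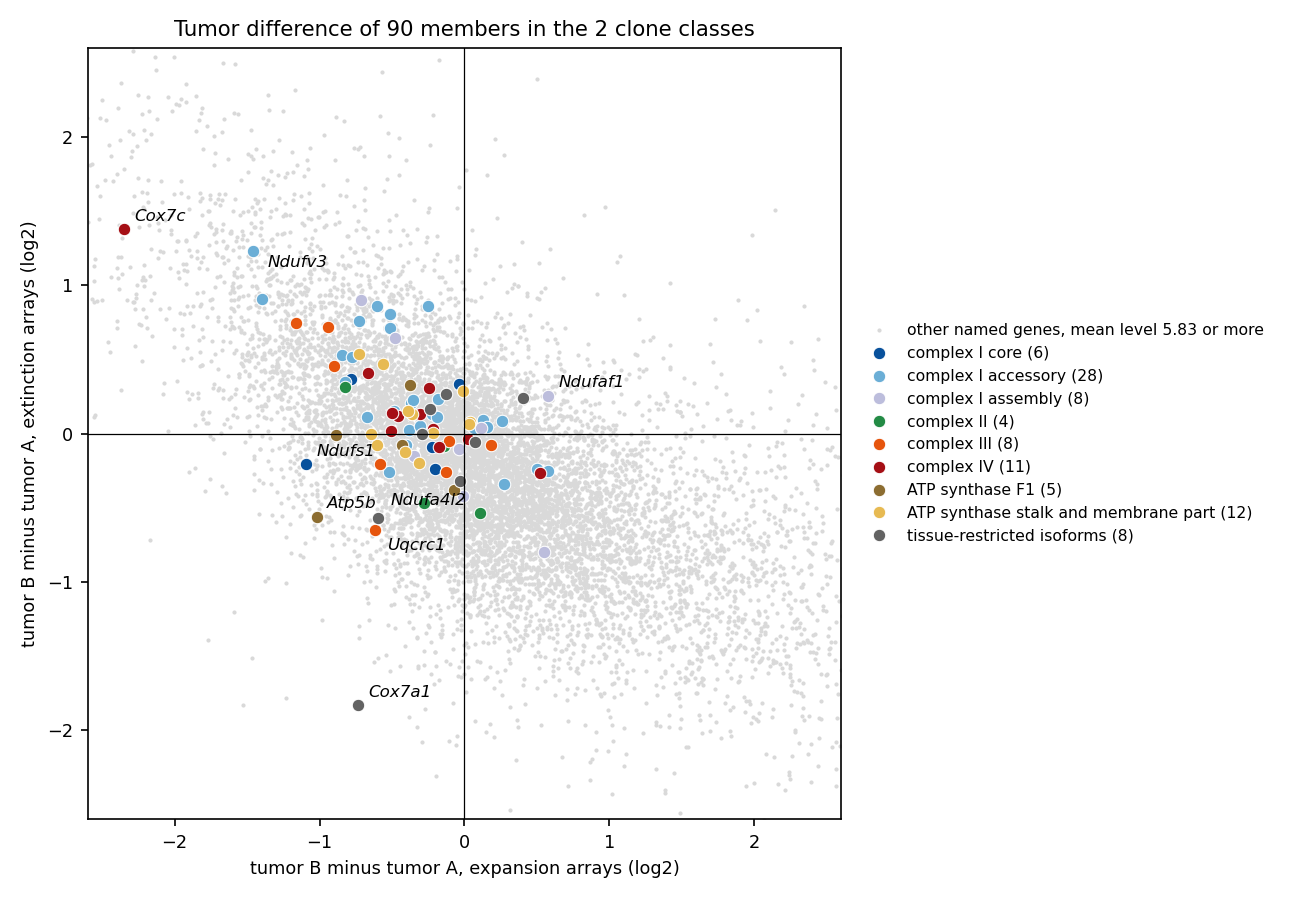
Tumor B minus tumor A (log2) in the expansion arrays on the x axis and in the extinction arrays on the y axis, 1 point per gene, with the 90 members colored by role and other named genes with a mean level of 5.83 or more in gray (genes beyond the axes are not drawn). Uqcrc1, Atp5b and Ndufa4l2 lie in the lower left, at -0.56 or below in each class, and 25 members lie at least 1.5-fold to the left.

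A minority of members kept 1 sign for the clone class, 7 higher and 14 lower in each tumor. In 3 members, Sdha, Cox4i2 and Atp5j, both expansion arrays were above both extinction arrays, against 11.6% of all named genes. In 9 members, Ndufa4l2, Ndufaf6, Ndufaf2, Cox6c, Ndufa10, Ndufa2, Cox5a, Atp5h and Atp5md, both were below, against 9.11%. The members with overlap but the same sign included Uqcrc1, Cox6a2 and Ndufa1, whose mean differences of 0.18, 0.10 and 0.03 turned when 1 array was left out.

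Other mitochondrial genes were read from lists kept apart from the members. Assembly factors outside the naming rule (37 of 40 measured) had medians of 0.13 and -0.14, and 18 of them crossed. The citric acid cycle enzymes (16 of 17 measured) had medians of -0.04 and -0.08, and carriers such as cytochrome c and ubiquinone synthesis enzymes (20 of 22 measured) of -0.01 and -0.05. Mitochondrial ribosomal proteins (76) had -0.04 and -0.25 and cytoplasmic ones (54) 0.02 and -0.14. Limma called 0 probe sets in either comparison, so none of these genes passed the test. Genes of the mitochondrial genome were not analysed here. Coq8a, a kinase-like protein of ubiquinone synthesis, differed by 2.48 and -1.54, and Coq10b, which binds ubiquinone, by -1.57 and 1.25.

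Of the regulators of mitochondrial biogenesis, 3 held larger crossings than any member, while the list as a whole did not. Ppargc1a, the coactivator PGC-1alpha, was at 11.54 and 6.60 in tumor A and at 5.06 and 10.48 in tumor B, differences of 4.94 and -5.42, and its 4 other probe sets had the same signs, between 4.58 and 5.66 for tumor A, and between -6.62 and -3.59 for tumor B. Ppargc1b, its relative, gave 2.30 and -2.44. Mitf, the pigment cell factor that is on the melanoma list too, gave 3.45 and -2.39. These 3 of 18 regulators were at least 2-fold apart in both tumors, and the share of all named genes that were so was not counted. The list's medians were 0.25 and -0.10, against 0.16 and -0.21 for the members. Of the 18 regulators, 10 crossed like most members and 4 the reverse way.

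How well the probe sets of a gene matched limits the smaller values. Of the 47 members that had at least 2 probe sets with a mean of 5.83 or more, 27 kept 1 sign within each tumor over those probe sets and 20 did not. The second group held the core subunits Ndufs7, Ndufs8 and Ndufv1 and Sdha, Sdhd, Cox6c, Cox8c and Atp5a1. Uqcr10, Ndufb9, Uqcrq, Ndufaf8, Ndufb7, Cox5b, Ndufc1 and Ndufv2 were among the first.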

How the data were processed

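Expression in sorted tumor endothelial cells was measured on 4 Affymetrix Mouse430_2 arrays. Per the submitters' processing notes, the authors used RMA and affy (versions not given in the sources used here). Their deposited values are on a log2 scale. RMA normalizes the arrays together, so a value depends on the other arrays. Per the labels, RNA was amplified before labelling, which can enlarge differences between small samples.

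Of 45101 probe sets, 64 controls were left out. Genes were named from the platform annotation, where 34945 probe sets have 1 symbol, 932 several and 9160 none listed, and all 90 members matched RefSeq. Clone classes and tumors were compared by limma's moderated two-sided test (version 3.58.1, R 4.3.3) on all 4 arrays with no covariate and a Benjamini-Hochberg threshold of 0.05. That step was tested on simulated data, with a pass required only for a small spread set alike on every array. Its power at the spread of these arrays is not reported here. Differences within a tumor had no test and were counted at 2-fold and 1.5-fold. P-values measure only the spread between these arrays, which the titles call biological replicates. Same-numbered arrays come from the same tumor by the labels, which pairs them. The correlation of their deviations from the class means was -0.67 over 45037 probe sets.

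The members, lists and named genes were chosen with earlier results of these data known. Named with values were core, complex II, complex III and F1 subunits, isoform families, the 8 largest differences in each tumor, up to 6 genes per direction with the same sign throughout, and members at least 2-fold apart. Up to 3 genes per other list were named by size. Other names (Ndufb7, Atp5mpl, Ndufa8, Ndufb6, Cox5b, the brown adipocyte markers and those behind a count) were chosen after their values were seen. Alternatives were the tumor as a block, a level filter, other scalings, trend and robust estimation, other probe set choices, the smaller fold threshold, and each array left out in turn.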

Additional observations from a re-analysis of the deposited data

Results flagged for a closer look

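The clone difference had opposite signs in the tumors for 3 members at least 2-fold apart in each, and for the members' median. The difference in tumor A minus that in tumor B was 3.73 for Cox7c, 2.69 for Ndufv3 and 2.31 for Ndufb9 on the log2 scale, and the median over the 90 members was 0.36. The probe sets of Cox7c, Ndufv3 and Ndufb9 had mean levels of 7.55, 11.97 and 12.53, so Cox7c rests on the dimmest signal. With 1 array per class and tumor, these differences between the tumors were not tested.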

How the results depend on the processing

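Limma called 0 members for clone class and 0 for tumor under every alternative run, including the fit with tumor as a replicate block (0 members called, and 128 probe sets with an unadjusted p under 0.05 in place of 469), which changed no call. A crossed pairing of the arrays, added after seeing the data, called 0 probe sets, with 1440 at an unadjusted p under 0.05. At 1.5-fold in place of 2-fold, the members apart numbered 16 in place of 4 in tumor A and 20 in place of 3 in tumor B. After quantile normalization again, 6 were 2-fold apart in tumor B. The members' medians kept their sign within each tumor under the scalings and probe set choices run, from 0.08 to 0.22 in tumor A and from -0.31 to -0.15 in tumor B, and 48 to 61 members crossed from higher in expansion A to lower in expansion B. Subtracting array medians moved the median of all named genes from -0.04 to -0.12 in tumor A and from 0.07 to 0.13 in tumor B. Leaving out each array in turn, the mean clone difference ranged from -0.14 to 0.51 for Uqcrc1, from -0.11 to 0.30 for Cox6a2, from -0.0023 to 0.064 for Ndufa1 and from -1.76 to 0.073 for Cox7a1, and the tumor difference of Ndufaf6 from -0.17 to 0.32. The clone difference kept its sign but ranged from -0.90 to -0.30 for Ndufa4l2, from 0.10 to 0.39 for Cox4i2 and from -0.45 to -0.050 for Ndufa10. Of 472 within-tumor values of 59 named members recomputed, 34 changed sign, and 0 of those at least 2-fold apart did.

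The main limit is 1 array for each class and tumor. Array values carry no depth, and no detection calls were used, so members of low signal, such as Cox7a1 and Cox7b2, carry the least certain values.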
